A study of Saccharomyces cerevisiae with 12 samples.

Results

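The genes described here are 10 members of the peroxide and nitric oxide defence of Saccharomyces cerevisiae, chosen by symbol in a table of the R64 genome that holds 6431 nuclear genes, 6002 of them protein-coding. They are the peroxiredoxin genes AHP1, TSA1 and TSA2, the cytosolic thioredoxin genes TRX1 and TRX2 with the thioredoxin reductase gene TRR1, the Cu,Zn superoxide dismutase gene SOD1, the cytosolic catalase gene CTT1, the cytochrome c peroxidase gene CCP1, and the flavohaemoglobin gene YHB1. All 10 symbols were found. RNA polymerase II (Pol II) was mapped on them by chromatin immunoprecipitation and sequencing in a dbp2Δ strain (MATa dbp2::KanMx6 his3Δ1 leu2Δ0 met15Δ0 ura3Δ0) and a wild-type strain (MATa his3Δ1 leu2Δ0 met15Δ0 ura3Δ0). DBP2 encodes an RNA helicase of the DEAD-box family. The Pol II subunit Rpb3 was tagged with triple FLAG in both strains, and the cells grew at 30 °C in YP medium with 2% glucose, without an added oxidant or nitric oxide donor named in the labels. Each strain gave 3 immunoprecipitated and 3 input libraries, and the authors called 1 list of peaks per strain on the pooled libraries.

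Peroxiredoxins reduce hydrogen peroxide and organic peroxides through a reactive cysteine. Thioredoxin returns the oxidised peroxiredoxin to its reduced form and is itself reduced by thioredoxin reductase at the expense of NADPH. Superoxide dismutase turns superoxide into hydrogen peroxide, catalase and cytochrome c peroxidase remove peroxide with a haem group, and flavohaemoglobin oxidises nitric oxide to nitrate. In yeast growing on glucose, TSA1 and AHP1 are known as abundant proteins, whereas CTT1 and TSA2 are known as genes induced by stress.

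The pooled immunoprecipitates held 4030024 fragments in dbp2Δ and 3648848 in the wild type after duplicates were removed, and the peak lists held 1628 and 1642 peaks. DBP2 itself was covered by peaks over 0% of its length in dbp2Δ and 100% in the wild type. With 1 pooled list per strain there was no spread between replicates and no test between the strains. A gene was counted as having a peak when peaks covered at least 50% of its length. Each peak also carries a pileup, the number of fragments over its summit, and a fold enrichment over background, both as the authors' peak caller gave them. The fold enrichment serves to rank the peaks of 1 list, and no direction is drawn between the lists from it. Pileups were not scaled between the lists, which differed in fragment number and in recorded fragment size (290 bp in dbp2Δ and 260 bp in the wild type), so they also stand side by side without a direction. Pileup divided by fold enrichment was 94.7 to 95.5 fragments for all member peaks in dbp2Δ and 82.7 to 89.7 in the wild type, near the lowest value of either list (94.7 and 82.5). For the members the fold enrichment was therefore close to the pileup over 1 floor per list. The 95% exact Poisson intervals given for pileups cover counting error only, and a summit is by construction the highest point of its peak.

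A peak covered 6 of the 10 genes in dbp2Δ and 7 of 10 in the wild type. AHP1, TSA1, TRX1, TRX2, TRR1 and SOD1 had a peak in both strains, and YHB1 in the wild type only. TSA2, CTT1 and CCP1 had none in either strain. Over all protein-coding genes, 20.6% had a peak in dbp2Δ and 19.9% in the wild type, and in the length range of the 10 genes (312 to 1689 bp) these shares were 22.8% and 22.4%. The members were chosen with earlier results of these data known, so the shares give a background and no test of the counts. No member had a peak in dbp2Δ only, a class that held 3.7% of protein-coding genes, and 1 member had a peak in the wild type only, a class that held 3%. The members were rich in peaks, so the closer background for this 1 of 7 is the 1197 genes that met the rule in the wild type. Of these, 180 (15%) did not meet it in dbp2Δ, and the members were thus near the background.

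**Figure D1:**
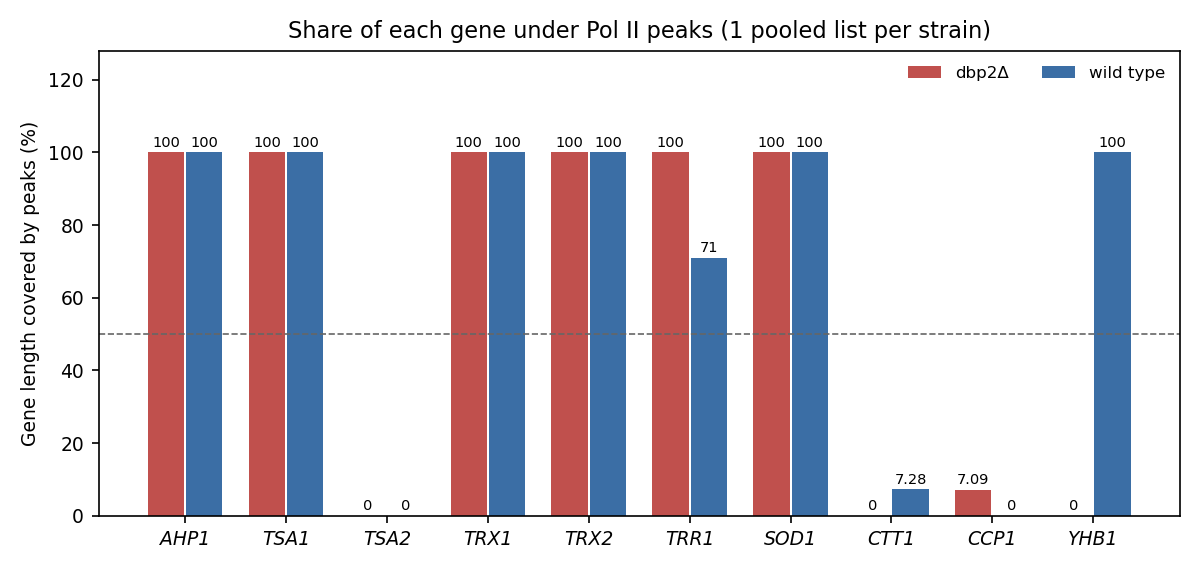
Percent of each gene's length under Pol II peaks in the dbp2Δ (red) and wild-type (blue) lists, with the 50% threshold as a dashed line. Coverage was complete or 0% for most genes, the exceptions being TRR1 (71% in the wild type), CTT1 (7.28% in the wild type) and CCP1 (7.09% in dbp2Δ), and YHB1 was covered in the wild-type list alone.

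The member peaks differed widely in rank within a list, and the 6 genes with a peak in both strains stood in the same order in both. In dbp2Δ the highest peak over a member lay on AHP1 (rank 2 of 1628, fold enrichment 19.5), followed by TRX1 (rank 27, 12.7), TSA1 (rank 263, 4.3), SOD1 (rank 375, 3.17), TRX2 (rank 593, 2.42) and TRR1 (rank 940, 1.89). In the wild type AHP1 (rank 4 of 1642, 17.7) was followed by TRX1 (rank 32, 12.1), TSA1 (rank 163, 6.51), SOD1 (rank 269, 4.12), YHB1 (rank 492, 2.62), TRX2 (rank 537, 2.51) and TRR1 (rank 667, 2.2). The first 2 of these do not describe the defence genes alone, because the summits of the AHP1 and TRX1 peaks lay inside neighbouring genes in both strains. In dbp2Δ the SOD1 summit lay inside URA8 and the TRX2 summit between genes, and in the wild type the YHB1 summit lay between genes. Only for TSA1 and TRR1 did the rank rest on a summit within the gene in both strains, so the shared order need not describe the genes themselves. The lists had a median fold enrichment of 2.04 in dbp2Δ and 1.99 in the wild type. The TRR1 peak stood below the median in dbp2Δ. In the wild type TRR1 had 2 peaks, 1 above the median (2.2) and 1 below it (1.68, rank 1171), and no difference between the strains is drawn from this.

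**Figure D2:**
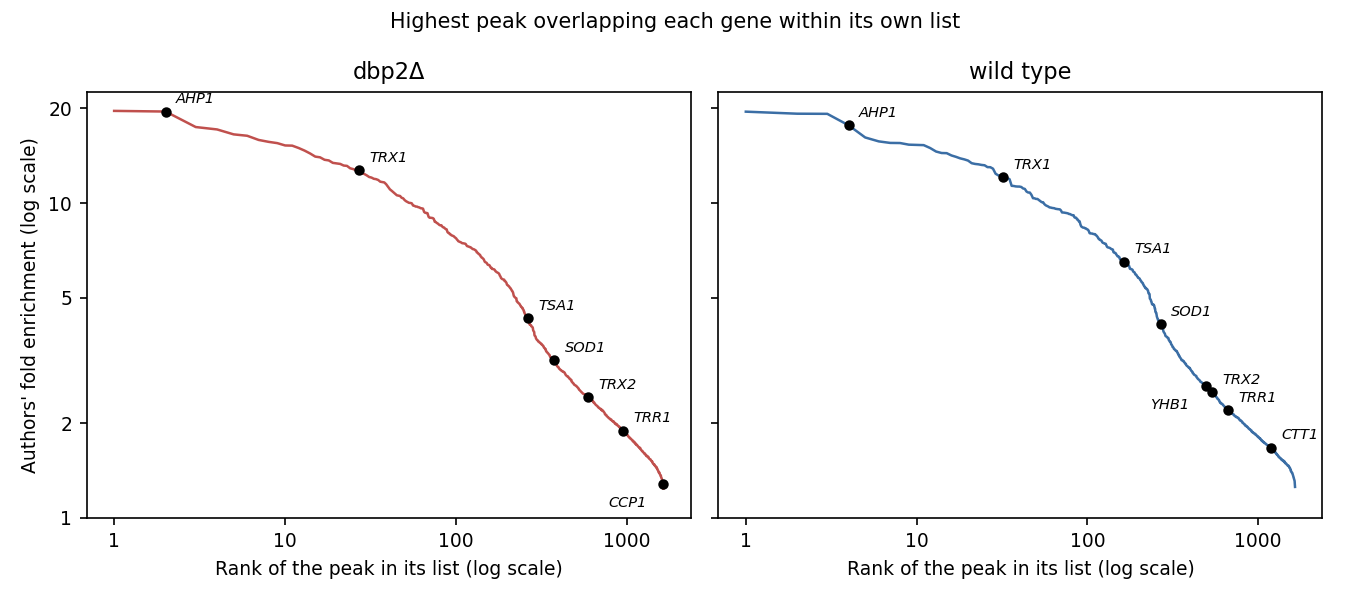
Fold enrichment of every peak against its rank within its own list, both on log scales, with the highest peak overlapping each gene marked. AHP1 and TRX1 lie at the head of both lists, TSA1 and SOD1 on the steep middle part, and TRX2 and TRR1 on the lower part, with YHB1 beside TRX2 in the wild type and absent in dbp2Δ.

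AHP1 (YLR109W, chromosome XII, 368781 to 369311, R64) encodes a thiol peroxidase that acts best on alkyl hydroperoxides. Its peak ran from 368693 to 370429 in dbp2Δ (1737 bp) and from 368631 to 370454 in the wild type (1824 bp). The pileup was 1865 fragments (1781 to 1952) in dbp2Δ and 1470 (1396 to 1547) in the wild type. Both peaks also covered 100% of CCW12, a convergent gene for an abundant cell wall mannoprotein that ends 385 bp from AHP1. The summits of the lists lay 1 bp apart, 326 bp from the start codon of CCW12 in dbp2Δ and 325 bp in the wild type, and so inside CCW12 rather than AHP1. The peak over AHP1 began 88 bp upstream of its start codon in dbp2Δ and 150 bp upstream in the wild type, and YLR108C on that side had 0% of its length covered in both.

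TSA1 (YML028W, chromosome XIII, 220138 to 220728) encodes the main cytosolic peroxiredoxin, and its peaks had their summits within the gene in both strains. The summit lay 189 bp from the start codon in dbp2Δ, with a pileup of 410 fragments (371 to 452), and 157 bp from it in the wild type, with 541 fragments (496 to 589). The peak was 2097 bp wide in dbp2Δ and 2763 bp in the wild type. It reached 1104 bp upstream of the start codon in dbp2Δ and 921 bp in the wild type, into the 3′ part of USA1, a gene of endoplasmic reticulum protein degradation in the same direction. On the other side it ended 402 bp past the end of TSA1 in dbp2Δ and 1251 bp past it in the wild type, where it took in 49.6% of YOX1, the gene of a homeodomain repressor. YOX1 was covered over 25.3% by all peaks in dbp2Δ and 69.2% in the wild type.

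TSA2 (YDR453C, chromosome IV, 1365072 to 1365662) encodes a close relative of Tsa1 and has the same length of 591 bp. No peak overlapped it in either list. The nearest peak lay 2845 bp away over YHP1 in dbp2Δ and 414 bp away over GUK1 in the wild type. GUK1, the guanylate kinase gene that precedes TSA2 in the same direction, was covered over 0% in dbp2Δ and 98.4% in the wild type. How fragments that match both TSA1 and TSA2, or both TRX1 and TRX2, were placed is not given in the sources used here.

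The 2 cytosolic thioredoxin genes are of similar length, 312 bp for TRX1 and 315 bp for TRX2, and lie in different surroundings. TRX1 (YLR043C, chromosome XII, 231702 to 232013) sits 376 bp downstream of PDC1, the major pyruvate decarboxylase gene, in the same direction. One peak covered all of TRX1 and PDC1, from 231388 to 235229 in dbp2Δ (3842 bp) and from 231418 to 234435 in the wild type (3018 bp). Its summit was in PDC1, 89 bp from the PDC1 start codon in dbp2Δ and 9 bp from it in the wild type, which is 1979 and 2059 bp upstream of TRX1. The pileups of 1211 fragments (1144 to 1281) in dbp2Δ and 1010 (949 to 1074) in the wild type therefore belong to the start of PDC1. The peaks ended 314 bp past the end of TRX1 in dbp2Δ and 284 bp past it in the wild type, and whether TRX1 had a local maximum of its own cannot be told from the lists.

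TRX2 (YGR209C, chromosome VII, 912913 to 913227) had a lower peak that reached 230 fragments (201 to 262) in dbp2Δ and 208 (181 to 238) in the wild type. The summit lay 8 bp upstream of the start codon in dbp2Δ and 230 bp inside the gene in the wild type, 238 bp apart. The 5′ edges were close, 268 bp upstream of the start codon in dbp2Δ and 230 bp in the wild type. The 3′ edges were not, at 481 bp past the gene in dbp2Δ and 1095 bp in the wild type. The convergent gene on that side is SER2, for the phosphoserine phosphatase of serine synthesis, and it was covered over 41% in dbp2Δ and 100% in the wild type.

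TRR1 (YDR353W, chromosome IV, 1183299 to 1184258) encodes the cytosolic thioredoxin reductase. In dbp2Δ 1 peak of 1660 bp covered the whole gene, from 355 bp upstream of the start codon to 345 bp past the end, with its summit 61 bp into the gene (180 fragments, 155 to 208). In the wild type 2 peaks covered 71% of it. The first began 354 bp upstream of the start codon, covered 44.4% of the gene and had its summit 15 bp into it (182 fragments, 157 to 210). The second covered 26.7%, with its summit 77 bp past the gene end (139 fragments, 117 to 164). The peaks were 278 bp apart, and the outer edges on both sides lay close to those of the dbp2Δ peak. No other gene was overlapped by these peaks, and the adjacent genes YPQ2 and TRP4 were covered over 0% in both strains.

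SOD1 (YJR104C, chromosome X, 622550 to 623014) was covered completely in both lists by peaks of unequal extent. The dbp2Δ peak ran from 622185 to 623108 (924 bp) and the wild-type peak from 622234 to 624816 (2583 bp). The edges past the 3′ end of SOD1 were 365 bp from it in dbp2Δ and 316 bp in the wild type. On the 5′ side the peak ended 94 bp upstream of the start codon in dbp2Δ and 1802 bp upstream in the wild type, where it took in all of ADO1, the divergent adenosine kinase gene. In dbp2Δ a separate peak overlapped ADO1, and 42.1% of ADO1 was covered. The summit was 113 bp past the end of SOD1 in dbp2Δ, 53 bp before the end of the convergent CTP synthase gene URA8, and 213 bp into SOD1 in the wild type. The pileups at these summits were 302 fragments (269 to 338) in dbp2Δ and 342 (307 to 380) in the wild type.

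YHB1 (YGR234W, chromosome VII, 959904 to 961103) was the only member with a peak in 1 list alone. In dbp2Δ 0% of the gene was covered, and the nearest peak lay 9115 bp away, over the phosphofructokinase gene PFK1. In the wild type a peak of 1748 bp from 959838 to 961585 covered 100% of the gene. It began 66 bp upstream of the start codon and ended 482 bp past the gene, within MIC26, a convergent gene for a mitochondrial inner membrane protein. MIC26 was covered over 0% in dbp2Δ and 32.2% in the wild type. The wild-type summit was not in YHB1 but 208 bp past its end, between the genes, with a pileup of 217 fragments (189 to 248). Complete coverage in the wild type with none in dbp2Δ was found for 31 of 6002 protein-coding genes (0.516%), which is 2.59% of the 1197 with a wild-type peak, and the opposite pattern for 18 genes (0.3%). A gene without a peak is not shown to lack Pol II, because the lowest pileup of any listed peak was 120 fragments in dbp2Δ and 106 in the wild type.

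**Figure D3:**
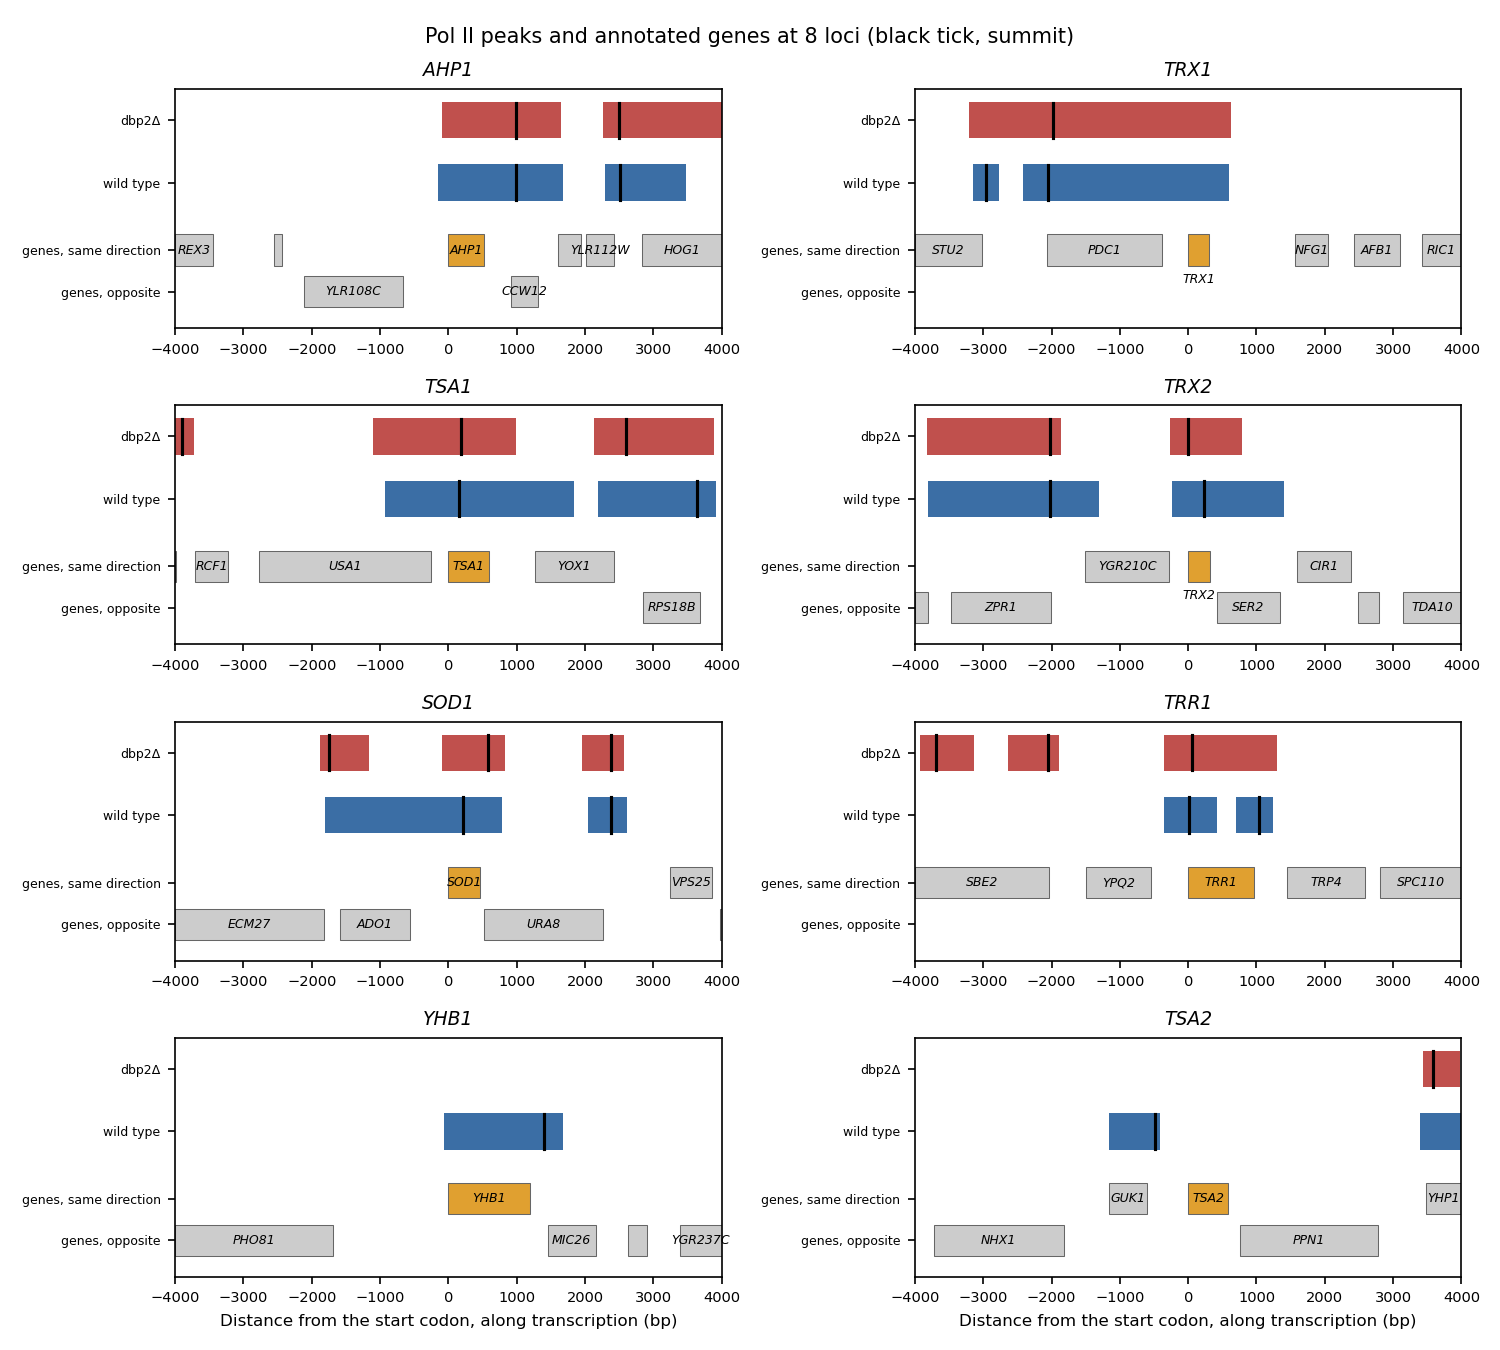
Peaks of dbp2Δ (red) and the wild type (blue), with summits as black ticks, above the annotated genes around 8 of the 10 genes (orange), in bp from each start codon along the direction of transcription. AHP1 and TRX1 share peaks with CCW12 and PDC1, the wild-type peaks of TSA1, TRX2 and SOD1 extend farther than those of dbp2Δ on 1 side, into a neighbour, TRR1 has 1 peak in dbp2Δ and 2 in the wild type, and YHB1 has a peak in the wild type only.

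The haem peroxidases were without a peak that met the coverage rule. CTT1 (YGR088W, chromosome VII, 654634 to 656322) had 0% covered in dbp2Δ, with the nearest peak 4005 bp away. In the wild type a peak of 300 bp covered 7.28% at its 3′ end, with the summit 45 bp past the gene (150 fragments, 127 to 176). CCP1 (YKR066C, chromosome XI, 566113 to 567198) had 7.09% covered in dbp2Δ, by a peak of 306 bp whose summit lay 205 bp past its end, near PAM17 (121 fragments, 100 to 145). That peak ranked 1623 of 1628. In the wild type 0% of CCP1 was covered, and the nearest peak lay 6461 bp away. Both small overlaps were thus at the 3′ ends of the genes, with summits outside them. In all, 0% was covered for 3 members in dbp2Δ (TSA2, CTT1 and YHB1) and 2 in the wild type (TSA2 and CCP1), against 57.6% and 61.2% of all protein-coding genes.

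Of the genes that had a peak, the summit lay inside the gene for 2 of 6 in dbp2Δ (TSA1 and TRR1) and for 4 of 7 in the wild type (TSA1, TRR1, TRX2 and SOD1). Among all protein-coding genes with a peak these shares were 41.1% in dbp2Δ and 54.6% in the wild type, so the count for the members lay in the range of the background. The member's peak also covered at least 50% of another annotated gene for 2 of 6 in dbp2Δ and 4 of 7 in the wild type, against 52% and 49.4% of all protein-coding genes with a peak. These neighbours were CCW12 and PDC1 in both strains, with SER2 and ADO1 in the wild type only. With peaks that covered no other gene alone, an alternative chosen after the values were seen, 4 members had a peak in dbp2Δ (TSA1, TRX2, TRR1 and SOD1) and 3 in the wild type (TSA1, TRR1 and YHB1), against 9.91% and 10.1% of all protein-coding genes. By this count 2 members (TRX2 and SOD1) had one in dbp2Δ only and 1 (YHB1) in the wild type only, classes that held 2.98% and 3.17% of protein-coding genes. TRX2 and SOD1 were both 100% covered in the wild type as well. They left the wild-type count only because those wider peaks also took in SER2 and ADO1.

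For AHP1, TSA1, TRX1, TRX2 and SOD1, each list had exactly 1 peak that covered 50% or more of the gene, so that widths could be set side by side. The peak was narrower in dbp2Δ for 4 of these 5, by 1659 bp at SOD1, 666 bp at TSA1, 576 bp at TRX2 and 87 bp at AHP1, and 824 bp wider at TRX1. The median width was 1737 bp in dbp2Δ and 2583 bp in the wild type over the 5 members, and 2138 and 2105 bp over all 939 protein-coding genes measured in this way. Of the 939, 43.9% had the narrower peak in dbp2Δ. At TRX1 the wild-type list had a further peak upstream of PDC1, 2765 bp from TRX1, in a stretch that the dbp2Δ peak spanned. The distance between the summits of the strains ranged from 1 bp at AHP1 to 364 bp at SOD1 (median 80 bp), against a median of 195 bp over the 939 genes.

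**Figure D4:**
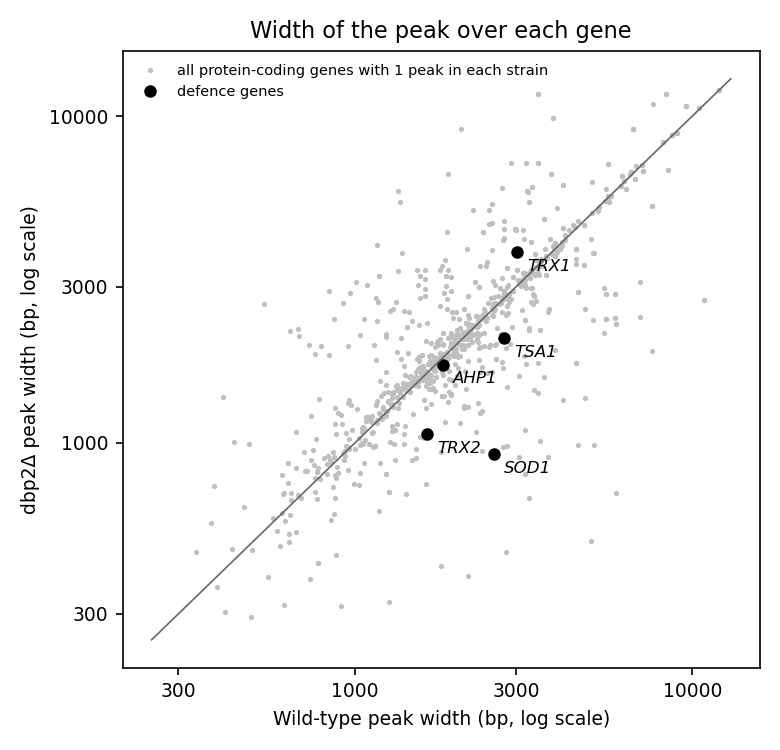
Width of the peak over each gene in dbp2Δ against the wild type, in bp on log scales, for 939 protein-coding genes whose coverage rested on 1 peak per list (grey) and 5 defence genes (black), with the line of equal width. SOD1, TSA1 and TRX2 lie below the line, AHP1 close to it and TRX1 above it, within the scatter of the grey points.

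The surrounding redox network was described with 50 further genes in 8 lists. A peak covered 11 of the 50 in dbp2Δ (22%) and 10 in the wild type (20%), near the 20.6% and 19.9% of all protein-coding genes. Both strains had a peak on 8 of them, dbp2Δ alone on 3 and the wild type alone on 2. The list of NADPH supply, which takes in the pentose phosphate pathway as a whole, had 5 of 10 in dbp2Δ and 4 of 10 in the wild type. The transketolase gene TKL1 (fold enrichment 5.05 in dbp2Δ and 5.41 in the wild type), the ribose phosphate isomerase gene RKI1 (3.04 and 2.67), the phosphogluconate dehydrogenase gene GND1 (2.45 and 2.65) and the aldehyde dehydrogenase gene ALD6 (2.26 and 2.91) were fully covered in both. The peaks over RKI1 also covered ARF3 in both strains, and the dbp2Δ peak over TKL1 also covered LTP1 and NOT5. ZWF1, for the first enzyme of the pentose phosphate pathway, had 0% covered in both. The transaldolase gene TAL1 was covered over 100% in dbp2Δ and 39.7% in the wild type, by peaks shared with its neighbour ILV5 (11.5 and 13), so these values need not describe TAL1.

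In the list of mitochondrial thioredoxin and dismutase genes and the Sod1 chaperone, 2 of 4 had a peak in each strain. CCS1, for the copper chaperone that loads Sod1, was covered completely in both strains (3.03 in dbp2Δ and 2.88 in the wild type), with the summit outside the gene in both. The dbp2Δ peak over CCS1 also covered SUB1. The manganese superoxide dismutase gene SOD2 was covered over 0% in dbp2Δ and 58% in the wild type (1.99, with the summit in the gene). The mitochondrial thioredoxin gene TRX3 was covered over 55.7% in dbp2Δ and 43.2% in the wild type, by peaks shared with TUP1, and met the rule in dbp2Δ only. TRR2, the gene of its reductase, had 0% covered in both. A summit thus lay inside SOD2 in the wild-type list and inside TRX3 in the dbp2Δ list. The coverage of TRX3 lay on either side of the threshold.

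Of the glutathione and glutaredoxin genes, 3 of 13 had a peak in dbp2Δ and 2 of 13 in the wild type. The glutaredoxin genes GRX1 (82% covered in dbp2Δ and 98.2% in the wild type) and GRX8 (60.9% and 74.5%) had one in both. The peaks over GRX8 also covered YLR363W-A in both strains. GRX2, with 50.5% covered in dbp2Δ and 0% in the wild type, met the rule by a narrow margin. The glutathione reductase gene GLR1 had the highest fold enrichment of its list (5.83 in dbp2Δ and 7.23 in the wild type) with 13.6% and 9.85% of its length covered, by peaks over RPS6A with their summits outside GLR1. The other peroxidase and catalase genes had 0 of 7 in dbp2Δ and 1 of 7 in the wild type, the glutathione peroxidase homologue GPX2, which was covered over 38.7% in dbp2Δ and 100% in the wild type. The peroxisomal catalase gene CTA1 came next in fold enrichment (1.57 in dbp2Δ and 1.52 in the wild type), with 22% and 7.62% covered. OYE2, for an NADPH oxidoreductase, was covered completely in both (2.08 and 2.1), and was the only 1 of 4 genes of its list with a peak. The 7 regulator genes, the 3 genes of nitric oxide and sulfite handling, and the 2 methionine sulfoxide reductase genes had no peak that met the rule in either strain. MXR1 was covered over 40.9% in dbp2Δ and 37.8% in the wild type, by peaks that also covered SAH1 (3.21 and 4.25). A summit lay inside MXR1 in dbp2Δ, and none did in the wild type. SFA1, for the S-nitrosoglutathione reductase, was covered over 14.6% in dbp2Δ and 8.7% in the wild type (2.68 and 1.84), and the sulfite pump gene SSU1 over 0% and 6.97% (4.31 in the wild type). The dbp2Δ peak at SFA1 also covered FAP7 and NRP1, and the wild-type peak at SSU1 also covered NOG1. All these summits lay outside SFA1 and SSU1, so the values need not describe SFA1 or SSU1. Of the transcription factor genes of the oxidative stress response, SKN7 was covered over 17.5% in dbp2Δ and 0% in the wild type, and YAP1 over 0% and 8.09%. FZF1, whose product activates SSU1 and YHB1, had 0% covered in both lists.

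**Figure D5:**
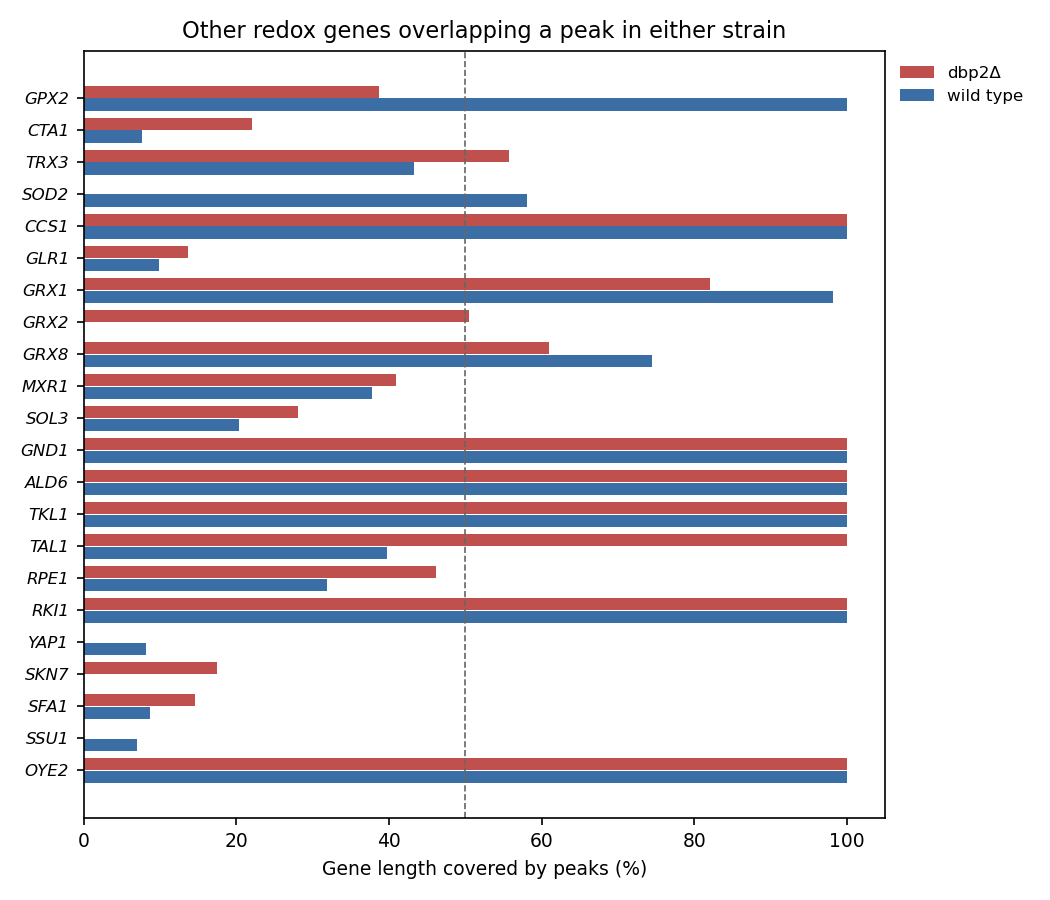
Percent of the gene under peaks in dbp2Δ (red) and the wild type (blue) for the further redox genes that overlapped a peak in either strain, with the 50% threshold dashed. SOD2 and GPX2 pass it in the wild type only, TRX3, GRX2 and TAL1 in dbp2Δ only, and 8 genes in both.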

How the data were processed

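The samples were 12 yeast libraries, 3 immunoprecipitates of FLAG-tagged Rpb3 and 3 inputs per strain. Tools named in the submitters' processing notes are MACS2 2.1.2, Bowtie2 2.3.3.1 and Trimmomatic 0.36, with build R64. The authors pooled the 3 immunoprecipitates of a strain, and its 3 inputs, before peak calling at a q-value cutoff of 0.05 with 1 duplicate kept, per the file headers. The deposited pileup is a coverage signal in fragments at the summit, and all its values are whole numbers. The deposited fold enrichment is a ratio to the caller's background, which for 91.2% of dbp2Δ and 69.8% of wild-type peaks lay within 5% of the lowest value in the list. The deposited −log10 q-value was used only as a filter (at least 5) in an alternative. Peaks and genes were joined in Python 3.11.15 with pandas 2.3.3. The gene table gives spans of coding regions (multiples of 3 bp for 96.4% of genes) with any introns, so a distance past a gene's end takes in its UTR. Strand was read from the systematic name. The coverage code was tested on simulated peaks. The members and gene lists were chosen with earlier results of these data known. Named genes were the members, genes under or beside their peaks, and, among further redox genes, those with a peak in 1 strain only and, per list and strain, the 2 with the highest fold enrichment of any overlapping peak. ALD6, FZF1, GND1, GRX8, RKI1, TRR2 and ZWF1 fall outside this rule and were chosen after their values were seen. Genes that share a peak with a named further redox gene were named as well. The alternatives are given at the end.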

Additional observations from a re-analysis of the deposited data

How the results depend on the processing

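No paired analysis was possible because the lists were called on pooled libraries, which also kept single replicates from being left out. YHB1 met the rule in the wild type and not in dbp2Δ under every coverage, enrichment, q-value and length alternative, and dropped out when a summit inside the gene was required. That rule left 2 members with a peak in dbp2Δ, 4 in the wild type and 2 in the wild type only (TRX2 and SOD1), and 7 and 5 of the further redox genes. Of all protein-coding genes with a peak, 41.1% in dbp2Δ and 54.6% in the wild type met it. Any overlap of at least 1 bp gave 1 member in dbp2Δ only (CCP1) and 2 in the wild type only (YHB1 and CTT1), 19 and 20 further redox genes, and 8 and 9 neighbours under a member's peak. Of all protein-coding genes, 57.6% in dbp2Δ and 61.2% in the wild type had no such overlap. TRR1 was the 1 member in dbp2Δ only when 90% coverage was required or 25% was taken off each gene end. At 90% coverage, 7 further redox genes had a peak in dbp2Δ, 1 of them in that strain alone. With peaks of at least 2-fold enrichment these genes numbered 7 in dbp2Δ (1 of them there alone) and 6 in the wild type (0 of them there alone), and TRR1 was covered over 0% in dbp2Δ and 44.4% in the wild type. With peaks over no other gene, 3 members had one in the wild type and 2 in dbp2Δ only (TRX2 and SOD1, whose wild-type peaks also covered a neighbour). No share of all protein-coding genes is given for the 90%, 25% and 2-fold alternatives. Nor is one given for strain-only counts under the 1 bp and summit rules, so all these counts stand without a background. Depth limits the absence of a peak, since enrichment under the caller's cutoff was not listed.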
